A study of Danio rerio with 12 samples.

Results

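The brains of male zebrafish that could see other males were compared with the brains of males that saw none. All 12 arrays of the series entered the comparison, 9 from bystanders and 3 from isolated fish, with 1 fish per array. The bystanders formed 3 groups of 3 fish each. BIC fish attended to a pair of males that fought, and BANIC fish attended to a pair of males that did not interact. BINIC fish were shown such a non-interacting pair but paid it little attention, and are called inattentive here as in the study. The last group held 3 socially isolated fish (ISOL). Every fish was an adult male of the AB wild-type strain, 11 months old, raised in mixed-sex stock tanks and then left alone overnight in its test tank, so bystanders too came from a night of isolation. The test lasted 30 min, and the isolated fish faced an empty tank. Bystanders looked through a one-way mirror, so they were not seen and no chemical cues passed. The 3 fish of each group were picked from a larger number by treatment and by their own position and orientation during the test, so attentive and inattentive are profiles chosen from the behavior and not treatments. The labels name no litter, tank or extraction batch, so the P-values measure the spread between these fish.

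When neurons fire strongly, a set of immediate early genes is transcribed within minutes without new protein synthesis. Many of them encode transcription factors (the Fos, Jun, Egr, Nr4a and Npas4 families), others encode phosphatases and Sprouty proteins that dampen MAP kinase signaling, and their transcripts are widely read as traces of recent brain activity. Slower programs, such as the sterol enzymes controlled by Srebf2 or the circadian clock, follow metabolism, light and the time of day. In whole-brain RNA, fewer cells of a type and less RNA per cell cannot be told apart.

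Values are log2 expression values, so a difference of 1 is a factor of 2. The main contrast was the mean of the 3 bystander group means minus the ISOL mean, from a limma fit of the 4 groups over 20871 annotated probe sets. The 12 arrays correlated with each other between 0.988 and 0.994, and no pair of arrays was identical. The median difference over all probe sets was close to 0 (-0.0024). Genes of neurons, radial glia and oligodendrocytes were high on every array: the neuronal gene snap25a lay between 10.88 and 11.10 in the bystanders and between 11.03 and 11.07 in ISOL. The 3 comparisons of a bystander group with isolation share the same 3 ISOL arrays, so a deviating isolated fish enters all of them.

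Seeing conspecifics, averaged over the 3 bystander groups, went with higher levels of a few activity-induced transcription factors. At a Benjamini-Hochberg FDR under 0.05 and a log2 difference of at least 1, 2 of the 20871 probe sets passed (0.00958%), npas4a and fosab, and both rose. With the FDR threshold alone 4 passed (0.0192%), adding egr4, which rose, and si:ch73-334d15.1, which fell. The number with an unadjusted P under 0.05 was 1713 (8.21%), of which 849 were higher and 864 lower in the bystanders.

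npas4a encodes a transcription factor that neurons induce on calcium entry and that shapes inhibitory synapses in mammals. Its log2 values were 9.34, 9.63 and 9.19 in BIC, 8.83, 8.56 and 9.47 in BANIC and 7.50, 7.80 and 7.39 in BINIC, against 6.98, 6.98 and 7.46 in ISOL. All BIC and BANIC fish lay far above the isolated fish, whereas the BINIC fish reached only just above them and BINIC3 lay below ISOL3. The mean difference was 1.49 (standard error 0.18, adjusted p = 0.0323 from limma). fosab is a zebrafish ortholog of c-fos. It had 8.53, 9.17 and 8.77 in BIC, 8.40, 8.13 and 8.75 in BANIC and 7.23, 6.95 and 7.25 in BINIC, against 6.50, 7.12 and 6.96 in ISOL, and again the BINIC and ISOL fish overlapped. Its mean difference was 1.27 (standard error 0.17, adjusted p = 0.0455 from limma). egr4, of the early growth response family of zinc finger factors, had 7.47, 7.97 and 7.55 in BIC, 7.25, 7.11 and 7.40 in BANIC and 6.06, 6.52 and 6.40 in BINIC, against 6.11, 6.05 and 6.14 in ISOL. The difference of 0.98 (standard error 0.12, adjusted p = 0.0323 from limma) stayed just short of the fold threshold.

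These 3 genes were therefore called on the mean of groups that were not alike. For npas4a the differences from ISOL were 2.24 in BIC, 1.81 in BANIC and 0.42 in BINIC. The corresponding values were 1.96, 1.57 and 0.29 for fosab and 1.57, 1.15 and 0.23 for egr4. A moderated F test among BIC, BANIC and BINIC found 4 probe sets at an FDR under 0.05 (0.0192%). They were npas4a, fosab, egr4 and nudc, each with an adjusted p of 0.048 from limma. The test compares the means of the bystander groups only, but the isolated fish enter its estimate of the spread. nudc encodes a partner of the dynein motor, and it set the inattentive fish apart: it had 8.32 to 8.48 in BIC, 8.33 to 8.42 in BANIC and 7.78, 7.86 and 7.94 in BINIC, against 8.46 to 8.57 in ISOL. BANIC too lay below ISOL, by a smaller amount (-0.16, unadjusted P in the limma fit 0.0429), and BIC overlapped it (-0.11). Among all probe sets, 1487 (7.12%) had an unadjusted P under 0.05 in that F test. The hyaluronan receptor gene cd44a was the fifth gene by its P there, with group means of 3.55 in BIC, 3.33 in BANIC and 3.81 in BINIC, against 3.52 in ISOL. Its main contrast was 0.04 (adjusted p = 0.87 from limma).

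The calls rested on the fit and on single fish. In a fit of 9 bystanders against 3 isolated fish, where the differences among the bystander groups enter the spread, 0 probe sets had an FDR under 0.05 by limma and 1669 an unadjusted P under 0.05, and leaving out 1 fish in turn gave 0 to 4 calls. By an exact 2-sided permutation test over the 220 choices of 3 of the 12 fish, run for 6 genes on which the study or its setting turns and adjusted over them, p was 0.0227 for npas4a (adjusted 0.0545), 0.0318 for egr4 (adjusted 0.0545), 0.0364 for fosab (adjusted 0.0545), 0.0955 for nr4a1 (adjusted 0.109), 0.109 for pth2 (adjusted 0.109) and 0.00455 for pcdh2ab7 (adjusted 0.0273), the last being the smallest p that 220 choices allow. Apart from pth2, these genes had been picked by the study from the same fish, so the permutation p-values describe the chosen genes and are not independent evidence.

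**Figure D1:**
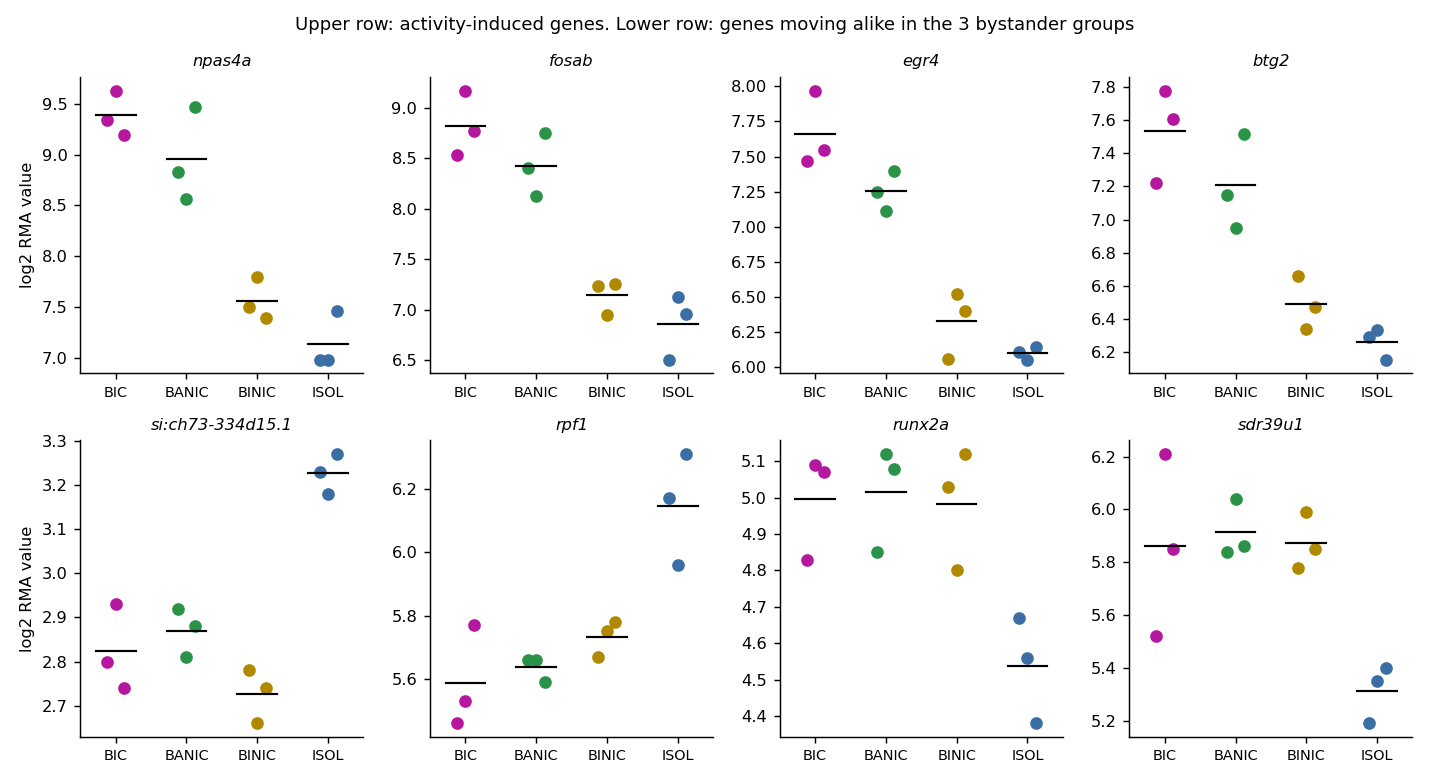
Log2 RMA values of 8 genes (y axis, a separate scale per panel) in the 3 fish of each group; points are fish and lines are group means. In the upper row npas4a, fosab, egr4 and btg2 were high in BIC and BANIC and near ISOL in BINIC; in the lower row si:ch73-334d15.1, rpf1, runx2a and sdr39u1 had all 9 bystanders on 1 side of the 3 ISOL fish.

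The wider group of immediate early transcription factors followed the same order of groups. Of 36 measured members of 39 listed, 15 were higher and 1 was lower in bystanders at an unadjusted P under 0.05, against 4.11% higher and 4.21% lower over all 18784 genes at 1 probe set each, and 3 passed the FDR threshold. The list holds npas4a, fosab, egr4 and nr4a1, which the study had named on these same fish, so its count is not independent of them. Its median difference was 0.17 (0.36 in BIC, 0.21 in BANIC and -0.02 in BINIC), beside a median of 0.00 over all genes. In the F test among bystander groups 24 of the 36 had an unadjusted P under 0.05, against 7.23% of all genes. No member was higher in all 3 bystander groups at P under 0.05. The mean level of the list was 6.36 to 6.61 in BIC, 6.32 to 6.37 in BANIC and 5.95 to 6.03 in BINIC, against 5.96 to 6.08 in ISOL, so only the inattentive bystanders overlapped the isolated fish.

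nr4a1, an orphan nuclear receptor gene, had 6.06, 6.79 and 6.31 in BIC, 5.85, 5.87 and 5.81 in BANIC and 4.13, 5.04 and 5.11 in BINIC, against 4.53, 4.90 and 4.92 in ISOL, with BINIC on both sides of ISOL. Its mean difference of 0.88 did not pass (adjusted p = 0.327 from limma). Its paralog nr4a3 differed by 0.46 (adjusted p = 0.207 from limma), with 0.72 in BIC, 0.46 in BANIC and 0.19 in BINIC. The single member that was lower at an unadjusted P under 0.05 was klf11b, a Krüppel-like factor gene, which differed by a similar amount in each group (-0.40 in BIC, -0.45 in BANIC and -0.28 in BINIC).

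Activity-induced genes that are not transcription factors, and the brakes of the MAP kinase cascade, were also more often higher than lower. Of 37 measured activity-induced genes 12 were higher and 2 lower at an unadjusted P under 0.05 (median 0.13), and of 18 genes of MAP kinase phosphatases, Sprouty and Spred proteins 8 were higher and 0 lower (median 0.18), against 4.11% higher and 4.21% lower over all genes. The medians were 0.15 in BIC, 0.11 in BANIC and 0.08 in BINIC for the activity-induced list, and 0.24, 0.17 and 0.08 for the MAP kinase list. In the F test among bystander groups 8 of 37 and 4 of 18 had an unadjusted P under 0.05 by limma, against 7.23% of all genes. None of either list passed the FDR threshold. The activity-induced list holds btg2, which the study had named on these same fish, so its count is not independent of that gene. btg2, an antiproliferative gene induced with immediate early genes, had 7.22, 7.78 and 7.61 in BIC, 7.15, 6.95 and 7.52 in BANIC and 6.66, 6.34 and 6.47 in BINIC, against 6.29, 6.33 and 6.15 in ISOL. All 9 bystanders were above the isolated fish, BINIC2 by 0.01 only, and the difference of 0.82 had an adjusted p of 0.15 from limma. dusp5 encodes a nuclear phosphatase of ERK. It had 8.09 to 8.38 in BIC and BANIC and 7.58 to 7.82 in BINIC, against 7.08, 7.59 and 7.64 in ISOL (difference 0.61, adjusted p = 0.15 from limma). zgc:122979, annotated in the study as a DnaJ (Hsp40) co-chaperone gene similar to dnajb5, is not in either list. It differed by 1.22 (adjusted p = 0.15 from limma), by 1.78 in BIC, 1.39 in BANIC and 0.48 in BINIC.

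The kinase gene sik1 (0.66), the phosphatase genes dusp1 (0.73) and dusp6 (0.36), the kinase gene pim1 (0.46) and the small GTPase gene rrad (0.43) had adjusted p-values of 0.289 to 0.436 from limma. A second dusp6 probe set, at a lower level, differed by 0.04. spred3, which encodes an inhibitor of Ras-ERK signaling and was picked after its values were seen, was the only gene of either list that moved alike: the differences were 0.26 in BIC, 0.29 in BANIC and 0.31 in BINIC, and all bystanders (7.18 to 7.46) were above the isolated fish (6.99, 6.87 and 7.11). The number of activity-induced genes that were higher was 5 of 37 without ISOL2, and that of the MAP kinase list 5 of 18 without ISOL1.

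The central question here was which genes moved alike whichever scene was shown and whether the fish were attentive or inattentive to it. A probe set was taken to move alike when each of the 3 groups differed from ISOL in the same direction at an unadjusted P under 0.05 in the same fit. This held for 217 probe sets (1.04%), of which 112 were higher (0.537%) and 105 lower (0.503%) in bystanders. At a P under 0.01 in each group 30 were left (0.144%). Since the groups share the ISOL arrays, these shares do not measure agreement between 3 independent experiments: the single comparisons had 5.82% (BIC), 6.03% (BANIC) and 11.1% (BINIC) of probe sets at an unadjusted P under 0.05. No probe set had an FDR under 0.05 in all 3 groups. Of the 217, 1 had an FDR under 0.05 in the mean contrast (si:ch73-334d15.1), 205 carried a single gene name, and 113 had all 9 bystanders on 1 side of the 3 isolated fish, which 273 of all probe sets did (1.31%). The rule for moving alike was applied to the same values and itself favors such separation. The 113 are therefore a description and no added evidence.

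The shared differences were small. The median absolute difference of the 217 was 0.313, 181 were under 0.5 and 5 reached 1. In the F test among bystander groups, 19 of them (8.76%) had an unadjusted P under 0.05. That is close to the 7.12% of all probe sets, so the share shows nothing particular to the 217. The number of probe sets moving alike changed by more than 1.5 times without 4 of the 12 fish: it was 422 without ISOL2, 343 without ISOL3, 137 without BIC2 and 132 without BIC3.

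Ordered by the largest of the 3 group P-values, the first 4 genes on the lower side were si:ch73-334d15.1, rpf1, tie1 and sgsh. si:ch73-334d15.1, annotated as a pseudogene, had 2.80, 2.93 and 2.74 in BIC, 2.92, 2.81 and 2.88 in BANIC and 2.78, 2.66 and 2.74 in BINIC, against 3.23, 3.18 and 3.27 in ISOL. Every bystander lay below every isolated fish and the groups differed little (-0.41 in BIC, -0.36 in BANIC and -0.50 in BINIC, mean -0.42, standard error 0.06, adjusted p = 0.0455 from limma). Its level was dim, above only 6.63% of the probe sets, where background makes up more of an array's signal. Its call was lost in 18 of the 20 alternative fits.

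rpf1, which encodes a factor in the assembly of the large ribosomal subunit, had 5.46, 5.53 and 5.77 in BIC, 5.66, 5.66 and 5.59 in BANIC and 5.67, 5.75 and 5.78 in BINIC, against 6.17, 5.96 and 6.31 in ISOL (difference -0.49, standard error 0.08, adjusted p = 0.15 from limma). sgsh encodes a lysosomal enzyme that degrades heparan sulfate. It had 5.49 to 5.68 in the bystanders and 5.78 to 5.98 in ISOL (-0.31, adjusted p = 0.15 from limma). tie1, a receptor tyrosine kinase gene of blood vessel cells, had 5.31 to 5.52 in the bystanders and 5.68 to 5.79 in ISOL (-0.30, adjusted p = 0.15 from limma). In none of these did the groups overlap.

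Markers of blood vessel cells were counted beside tie1. Of 7 endothelial markers 2, tie1 and kdrl (-0.22), were lower and 0 higher at an unadjusted P under 0.05, against 4.21% lower and 4.11% higher over all genes. The differences of 3 of the 7 were positive and of 4 negative, with a median of -0.07. The mean level of the list was 5.89 to 6.0 in BIC, 5.88 to 6.01 in BANIC and 5.92 to 6.06 in BINIC, against 6.01 to 6.09 in ISOL. BINIC thus overlapped the isolated fish and BANIC touched them. The tight junction gene cldn5a, chosen after its values were seen, also moved alike (-0.27), with bystanders at 6.22 to 6.45 and ISOL at 6.49 to 6.67. The part of the vessel cells in these differences was not tested.

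On the higher side, runx2a, a Runt-domain transcription factor gene known from bone formation, had 4.83, 5.09 and 5.07 in BIC, 4.85, 5.12 and 5.08 in BANIC and 5.03, 4.80 and 5.12 in BINIC, against 4.67, 4.56 and 4.38 in ISOL. The differences were nearly the same in the 3 groups (0.46, 0.48 and 0.44, adjusted p of the mean contrast 0.22 from limma). sdr39u1, of the short-chain dehydrogenase family, had 5.52 to 6.21 in the bystanders and 5.19 to 5.4 in ISOL (0.57, adjusted p = 0.231 from limma). pfkfb2b, whose enzyme sets the level of the glycolytic activator fructose 2,6-bisphosphate, had 7.57 to 7.86 in the bystanders and 7.35 to 7.39 in ISOL (0.34, adjusted p = 0.178 from limma). In all 3 genes the 9 bystanders lay above the isolated fish.

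The same was true of slc22a6l, an organic anion transporter family gene (0.48, bystanders 4.97 to 5.45 and ISOL 4.54 to 4.95), and of fgfbp3, an FGF-binding protein gene (0.47, bystanders 3.87 to 4.41 and ISOL 3.43 to 3.79), although a second and brighter fgfbp3 probe set differed by -0.01. It was also true of hopx, a homeodomain-only protein gene (0.46, bystanders 5.35 to 5.94 and ISOL 5.17 to 5.22), and of ergic1, which encodes a protein of the compartment between endoplasmic reticulum and Golgi (0.33, bystanders 5.98 to 6.36 and ISOL 5.81 to 5.91). hopx and ergic1 were alike in sign but not in size: hopx differed from ISOL by 0.37 in BIC, 0.70 in BANIC and 0.32 in BINIC, and ergic1 by 0.21, 0.29 and 0.48 in the same order. Their F tests among the bystander groups gave unadjusted P-values of 0.00325 and 0.0021 (adjusted p = 0.449 and 0.413 from limma).

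**Figure D2:**
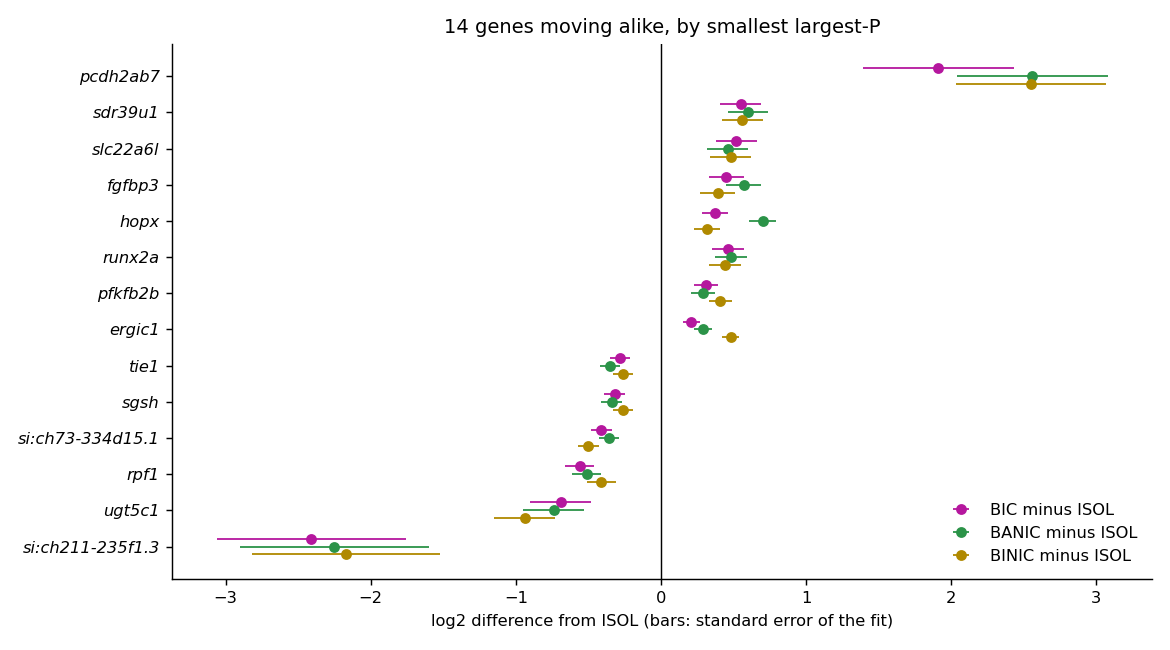
Log2 differences from ISOL (x axis) of 14 of the 15 single-gene probe sets that moved alike with the smallest largest P of the 3 groups (y axis), with BIC, BANIC and BINIC as separate points and bars of 1 standard error of the fit. Of the 14 genes drawn, 8 were higher and 6 lower; pcdh2ab7 and si:ch211-235f1.3 had differences above 1.9 in size and the widest bars.

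3 of the genes with the smallest P in the mean contrast, adrb2a, mtnr1c and slc5a5, also moved alike. adrb2a, a beta-2 adrenergic receptor gene, had 6.29, 6.46 and 6.59 in BIC, 6.63, 6.75 and 6.56 in BANIC and 6.90, 6.73 and 6.71 in BINIC, against 6.01, 6.04 and 6.33 in ISOL. BIC1 lay below ISOL3 and all other bystanders lay above it (0.50, standard error 0.09, adjusted p = 0.15 from limma). mtnr1c, a melatonin receptor gene, had 5.92 to 6.55 in the bystanders, lowest in BIC1, and 5.68 to 6.06 in ISOL, highest in ISOL2 (0.48, adjusted p = 0.15 from limma). slc5a5, the sodium-iodide symporter gene, had 6.45 to 6.99 in the bystanders and 6.13 to 6.39 in ISOL (0.40, adjusted p = 0.15 from limma). For adrb2a, mtnr1c and slc5a5 the difference was smallest in BIC (0.32, 0.27 and 0.27) and largest in BINIC (0.65, 0.64 and 0.62), but their F tests among the bystander groups did not pass (adjusted p = 0.659, 0.613 and 0.472 from limma).

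3 more genes were picked out after their values were seen. npy7r, a neuropeptide Y receptor gene, had 4.14 to 4.82 in the bystanders and 3.92 to 4.13 in ISOL (0.55, adjusted p = 0.209 from limma), while its other probe set differed by -0.07. gpr3, whose receptor raises cAMP without a known ligand, had 7.20 to 8.45 in the bystanders and 6.67, 6.69 and 7.27 in ISOL, so that BINIC1 lay below ISOL3 (0.92, adjusted p = 0.156 from limma) and followed the order of the immediate early genes, with 1.26 in BIC, 0.92 in BANIC and 0.58 in BINIC. mhc2daa, an MHC class II gene, differed by 0.59, 0.57 and 0.57 in the 3 groups (mean 0.58, adjusted p = 0.381 from limma). It overlapped in 1 place, since BINIC3 (3.63) lay below ISOL2 (3.67). MHC class II genes are known from antigen-presenting leukocytes. Of the 14 markers of microglia and leukocytes, 0 were higher and 0 lower at an unadjusted P under 0.05 by limma, against 4.11% and 4.21% of all genes. None passed the FDR threshold. The differences of 12 of the 14 were negative and of 2 positive, with a median of -0.07. The part of leukocytes in the mhc2daa difference was not tested.

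2 further uncharacterized genes among the smallest P-values were lower: zgc:153345 (-0.28, bystanders 5.26 to 5.61 and ISOL 5.64 to 5.75) and si:ch211-236d3.4 (-0.52, bystanders 7.25 to 7.99 and ISOL 7.99 to 8.06). In si:ch211-236d3.4 BINIC3 came within rounding of ISOL2, and the adjusted p was 0.15 from limma for both.

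In the 5 probe sets that moved alike by at least 1, single fish stood at the level of the other side or overlapped it. They were named after their values were seen, except pcdh2ab7 and si:ch211-235f1.3. pcdh2ab7 encodes a clustered protocadherin, an adhesion protein of the neuronal surface. It had 2.42, 5.02 and 5.02 in BIC, 4.66, 4.83 and 4.92 in BANIC and 4.80, 4.88 and 4.71 in BINIC, against 2.39, 2.21 and 2.14 in ISOL. BIC1 thus stood at the level of the isolated fish and the other 8 bystanders more than 2 above it. The mean difference was 2.34 (standard error 0.42, adjusted p = 0.15 from limma), and without BIC1, left out here because of its value, it was 2.63. With the study's filters, which test fewer probe sets, the adjusted p of pcdh2ab7 was 0.0219 from limma.

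In si:ch211-235f1.3, a protein-coding gene with no role given in the sources used here, the divergent fish was an isolated one. All bystanders lay at 2.97 to 3.64, against 6.96, 3.57 and 6.59 in ISOL. The mean difference was -2.27 (adjusted p = 0.338 from limma) and -3.34 without ISOL2, which was singled out by its value. timd4, which encodes a phosphatidylserine receptor of macrophages, had 5.25 to 5.58 in the bystanders, against 7.48, 5.45 and 8.0 in ISOL, again with ISOL2 among the bystanders. Its difference was -1.54 (adjusted p = 0.381 from limma), or -2.30 without ISOL2. The chemokine gene ccl34b.4 had 4.43 to 6.41 in the bystanders, against 7.86, 5.52 and 7.04 in ISOL (-1.63, adjusted p = 0.436 from limma). si:ch73-191k20.4, an RNA gene, ran the other way with 5.54 to 6.36 in the bystanders and 4.49, 5.59 and 4.46 in ISOL (1.01, adjusted p = 0.381 from limma). In each of these 4 genes it was ISOL2 that lay within the range of the bystanders, apart from the other 2 isolated fish.

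Enzymes of cholesterol synthesis, which Srebf2 switches on together when cells are short of sterol, were more often higher than lower in the bystanders. Of 28 measured genes of 33 listed, 13 were higher and 0 lower at an unadjusted P under 0.05, against 4.11% and 4.21% of all genes, and none passed the FDR threshold. The median difference was 0.20, with 0.16 in BIC, 0.15 in BANIC and 0.29 in BINIC, beside 0.00 over all genes. In the F test among bystander groups 7 of the 28 had an unadjusted P under 0.05 by limma, against 7.23% of all genes. 3 enzyme genes moved alike by the rule: lss (lanosterol synthase), acat2 (acetyl-CoA acetyltransferase) and sqlea (squalene epoxidase). The differences in BIC, BANIC and BINIC were 0.46, 0.21 and 0.62 for lss and 0.32, 0.33 and 0.63 for acat2. Their F tests among the bystander groups gave unadjusted P-values of 0.00359 and 0.0427 (adjusted p = 0.457 and 0.691 from limma). lss had 4.37, 4.44 and 4.58 in BIC, 4.03, 4.34 and 4.28 in BANIC and 4.73, 4.62 and 4.53 in BINIC, against 3.96, 4.1 and 3.95 in ISOL. BANIC1 lay below ISOL2 and the other bystanders above all isolated fish (0.43, standard error 0.08, adjusted p = 0.15 from limma).

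sqlea had the larger difference, 0.60 (adjusted p = 0.381 from limma), with 0.43 in BIC, 0.55 in BANIC and 0.83 in BINIC. mvda, mevalonate decarboxylase, differed by 0.48 (adjusted p = 0.325) and acat2 by 0.42 (adjusted p = 0.338), both from limma. The mean level of the list was 6.12 to 6.24 in BIC, 6.09 to 6.22 in BANIC and 6.22 to 6.41 in BINIC, against 5.99 to 6.10 in ISOL, so only BANIC1 lay within the range of the isolated fish. The number of higher genes was 7 without ISOL2, 9 without ISOL3 and 13 or 14 without any other fish, and the median stayed between 0.16 and 0.24.

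Genes of the circadian clock had similar median differences in the 3 groups. Of 44 measured genes of 47 listed, 12 were higher and 5 lower at an unadjusted P under 0.05, against 4.11% and 4.21% of all genes, none passed the FDR threshold, and the median difference was 0.13 in BIC, 0.10 in BANIC and 0.16 in BINIC. The period genes, which encode repressors of the clock, were higher. per1b differed by 0.73 (0.70, 0.75 and 0.75 in the groups), per3 by 0.53, per1a by 0.71 and per2 by 0.90. Of the 44 clock genes 2 moved alike by the rule, per1b and per3. The activators bmal1b (-0.30) and clocka (-0.22) and the receptor gene rorcb (-0.69) were among the 5 lower genes, with nfil3-5 and nr1d4b. In the F test among bystander groups, 0 of the 44 genes had an unadjusted P under 0.05 by limma, against 7.23% of all genes. That count does not show that the differences were equal in size.

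The isolated fish also differed among themselves. per1b had 7.45, 8.12 and 7.84 in BIC, 8.11, 7.38 and 8.05 in BANIC and 7.42, 8.20 and 7.93 in BINIC, against 6.89, 6.87 and 7.54 in ISOL, so that ISOL3 lay within the bystanders (adjusted p = 0.452 from limma). The mean level of the list was 7.36 to 7.62 in the bystanders and 7.36, 7.13 and 7.51 in ISOL. Without ISOL2, 1 gene was higher and 0 lower at an unadjusted P under 0.05 by limma, without ISOL1 the numbers were 6 and 0, and without ISOL3 they were 21 and 8. The time of day at which each fish was sampled was not analysed here.

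Among glucocorticoid targets ISOL2 was again the lowest fish. Of 22 measured genes, 3 were higher and 0 lower at an unadjusted P under 0.05, against 4.11% and 4.21% of all genes. The 3 were per1b, per1a and errfi1a, of which per1b and per1a also belong to the clock list above. The median difference of 0.17 became 0.05 without ISOL2. The mean level of the list was 6.34 to 6.80 in the bystanders and 6.52, 5.97 and 6.60 in ISOL.

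Neuropeptide genes differed in the mean contrast about as often as all genes did. Of 50 measured genes of 61 listed, 3 were higher (ucn3l, pmchl and uts1) and 2 lower (agrp and crha) at an unadjusted P under 0.05, against 4.11% higher and 4.21% lower over all genes, and the median difference was -0.04. By group the median was 0.04 in BIC, 0.0 in BANIC and -0.08 in BINIC. In the F test among bystander groups 10 of the 50 genes had an unadjusted P under 0.05 by limma, against 7.23% of all genes. ucn3l, a urocortin gene of the corticotropin-releasing factor family, was the only one that moved alike: it had 6.28 to 7.08 in the bystanders and 6.19, 5.58 and 6.34 in ISOL (0.53, adjusted p = 0.466 from limma), with 0.43 in BIC, 0.47 in BANIC and 0.70 in BINIC. The melanin-concentrating hormone gene pmchl differed by 0.40 and agrp, an appetite-stimulating peptide gene, by -0.32 (adjusted p = 0.501 and 0.488 from limma), and a second agrp probe set differed by -0.04. pth2, whose level in zebrafish is known to follow the presence of other fish, had 3.61 to 4.11 in the bystanders and 4.18, 3.88 and 4.15 in ISOL, a difference of -0.18 that did not pass (adjusted p = 0.624 from limma). These pth2 values were dim beside the median level of all probe sets (5.64), and background makes up more of a dim signal.

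Of 44 heat shock and chaperone genes 2 were higher (hspb6 and hsf2) and 1 lower (dnajb1a) at an unadjusted P under 0.05, against 4.11% higher and 4.21% lower over all genes, with a median difference of 0.01. zgc:122979, described above with the activity-induced genes, is not in this list under its array name. hspb6, a small heat shock protein gene that muscle expresses strongly, moved alike (0.73 in BIC, 1.13 in BANIC and 0.73 in BINIC, mean 0.86, adjusted p = 0.4 from limma). Its bystander values were 6.51 to 7.28 except 8.03 in BANIC3, and ISOL had 5.94 to 6.31. The mean level of 7 skeletal muscle markers was 5.58 in BANIC3 and 3.73 to 4.31 in the other bystanders, against 3.90 to 4.12 in ISOL. For hspb6 the other 8 bystanders also lay above the isolated fish. The part of muscle in this difference was not tested.

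**Figure D3:**
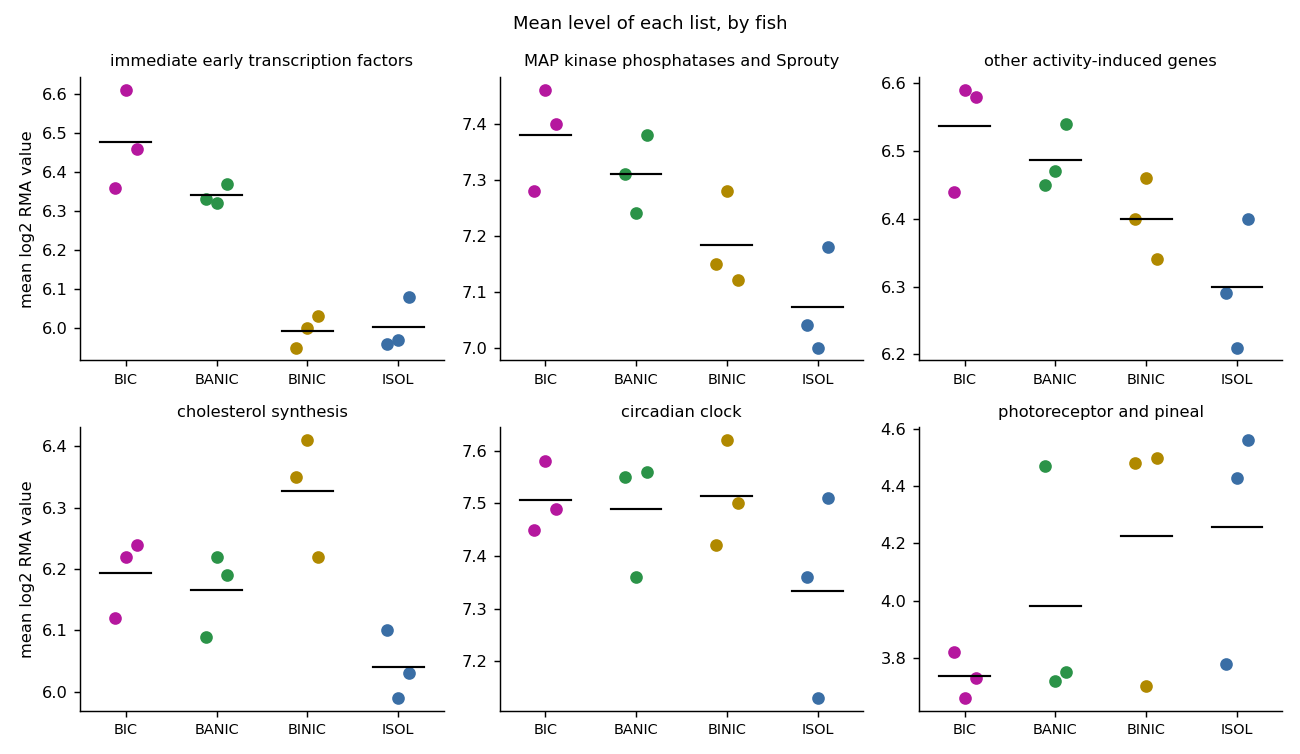
Mean log2 RMA value over the members of 6 gene lists (y axis, a separate scale per panel) in each fish, by group; points are fish and lines are group means. Immediate early transcription factors were near the ISOL level in BINIC, cholesterol synthesis genes were highest in BINIC, ISOL2 was lowest for the clock genes, and the photoreceptor and pineal markers took a high or a low level within BANIC, BINIC and ISOL.

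The genes differing between bystanders and isolated fish were unevenly spread over the chromosomes. The share of probe sets with an unadjusted P under 0.05 was 15.8% on chromosome 14 (106 of 669, 44 higher and 62 lower), against 8.21% over the 25 chromosomes, where the next highest was 10.8% on chromosome 4. The share moving alike was 3.59% on chromosome 14 (24 probe sets, 16 higher and 8 lower), 2.54% on chromosome 18 (17) and 2.11% on chromosome 11 (13), against 1.03% over all 25. The share at an unadjusted P under 0.05 on chromosome 14 was 9.87% in BIC, 10.6% in BANIC and 18.8% in BINIC, against 5.81%, 5.98% and 11.3% over all chromosomes. Leaving out 1 fish in turn moved the share on chromosome 14 between 11.7% and 16.9%. These shares are a description, without a test, since neighboring genes do not vary independently.

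**Figure D4:**
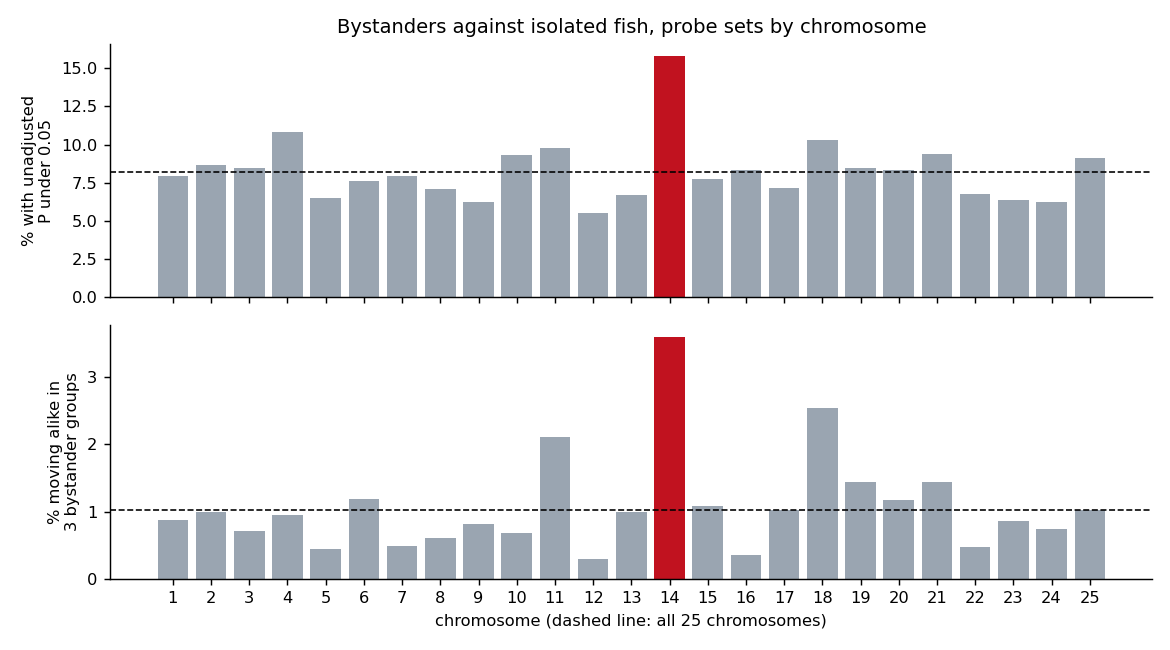
Share of probe sets on each of the 25 chromosomes (x axis) with an unadjusted P under 0.05 in the bystander against isolated contrast (upper panel, %) and moving alike in the 3 bystander groups (lower panel, %); dashed lines are the shares over all 25 chromosomes. Chromosome 14 (red) had the highest share in both, 15.8% and 3.59%.

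Clustered protocadherins give neurons a combinatorial surface identity, and the pcdh2 genes named here lie on chromosome 14. Of 27 measured clustered protocadherin genes 4 were higher and 6 lower at an unadjusted P under 0.05, against 4.11% and 4.21% of all genes. Of the same 27 genes 5 moved alike, against 1.04% of all probe sets. The list holds pcdh2ab7, which the study had named on these same fish, so its counts are not independent of that gene. pcdh2g5 had 4.13, 5.26 and 4.80 in BIC, 4.97, 4.85 and 4.48 in BANIC and 5.48, 4.87 and 4.92 in BINIC, against 3.87, 4.24 and 3.70 in ISOL (0.92, adjusted p = 0.338 from limma). pcdh2aa15 had 5.14 in BIC1 and 5.67 to 5.99 in the other bystanders, against 5.11 to 5.25 in ISOL (0.57, adjusted p = 0.382 from limma). pcdh2g28 was lower by 0.31 on the log2 scale, with 6.86 to 7.16 in the bystanders and 7.21 to 7.34 in ISOL (adjusted p = 0.178 from limma). Members of this cluster are similar in sequence, so a probe set can read more than its own gene.

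Other genes of chromosome 14 shared the position of BIC1. Among them were adrb2a and npy7r, described above, with BIC1 as the lowest bystander (6.29 and 4.14). npas4a and dusp1 also lie on chromosome 14, but BIC1 was not their lowest bystander. commd5, a COMM-domain gene, had 5.62 in BIC1 and 5.94 to 6.19 in the other bystanders, against 5.47, 5.6 and 5.59 in ISOL (0.48, adjusted p = 0.15 from limma). reep2, whose product shapes the endoplasmic reticulum, had 8.82 in BIC1 and 9.09 to 9.29 in the other bystanders, against 8.68, 8.83 and 8.73 in ISOL (0.44, adjusted p = 0.15 from limma). Over the 106 probe sets of chromosome 14 with an unadjusted P under 0.05, BIC1 was the bystander nearest the ISOL mean in 43 (40.6%), against 346 of 1468 (23.6%) on the other chromosomes. Over those moving alike the numbers were 17 of 24 (70.8%) and 48 of 174 (27.6%). This count was made after the values were seen and is not tested. Without BIC1 an FDR under 0.05 was reached by 20 probe sets, among them pcdh2ab7, pcdh2aa15, hopx, commd5, reep2 and ergic1 of chromosome 14. BIC1 was singled out by these values, so that number is no test of them.

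A second run of neighbors lay on chromosome 18. In the RefSeq order of genes ugt5c3, ugt5c1, ugt5c2, zgc:101040, chrna5 and vwa7 follow each other, with other gene models between some of them. The 3 ugt5c genes encode glucuronosyltransferases, enzymes that tag small molecules for excretion. ugt5c3 had 3.73, 3.41 and 3.39 in BIC, 3.22, 3.18 and 3.29 in BANIC and 3.23, 3.01 and 3.09 in BINIC, against 4.20, 3.64 and 3.96 in ISOL (-0.65, standard error 0.11, adjusted p = 0.15 from limma). BIC1 lay above ISOL2 and the other bystanders below all isolated fish. ugt5c1 (-0.79, adjusted p = 0.269) and ugt5c2 (-0.79, adjusted p = 0.15, chosen after its values were seen) had all bystanders below ISOL, both from limma. The levels of ugt5c1 and ugt5c3 were dim, above only 9.33% and 12.2% of the probe sets, where background makes up more of the signal. The level of ugt5c2 was above 34.9% of them. vwa7, a gene with a von Willebrand factor A domain, had 4.82, 4.47 and 4.21 in BIC, 3.89, 3.61 and 3.85 in BANIC and 3.87, 4.08 and 3.87 in BINIC, against 4.94, 4.55 and 5.21 in ISOL, with BIC1 above ISOL2 (-0.82, adjusted p = 0.15 from limma), with a smaller difference in BIC (-0.40) than in BANIC (-1.12) or BINIC (-0.96).

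Between them zgc:101040 was higher, with 4.99 to 5.50 in the bystanders and 4.85 to 4.95 in ISOL (0.36, adjusted p = 0.15 from limma), while chrna5, a nicotinic acetylcholine receptor subunit gene, differed by 0.11 (adjusted p = 0.747 from limma). Farther along, si:ch211-132b12.7 had 7.97 to 9.26 in the bystanders and 7.73, 7.25 and 8.36 in ISOL (0.82, adjusted p = 0.488 from limma). The direction was thus not uniform within the run: the ugt5c genes and vwa7 were lower, and zgc:101040 was higher. The 3 ugt5c genes are of 1 family, and their probe sets may share signal, which was not tested.

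**Figure D5:**
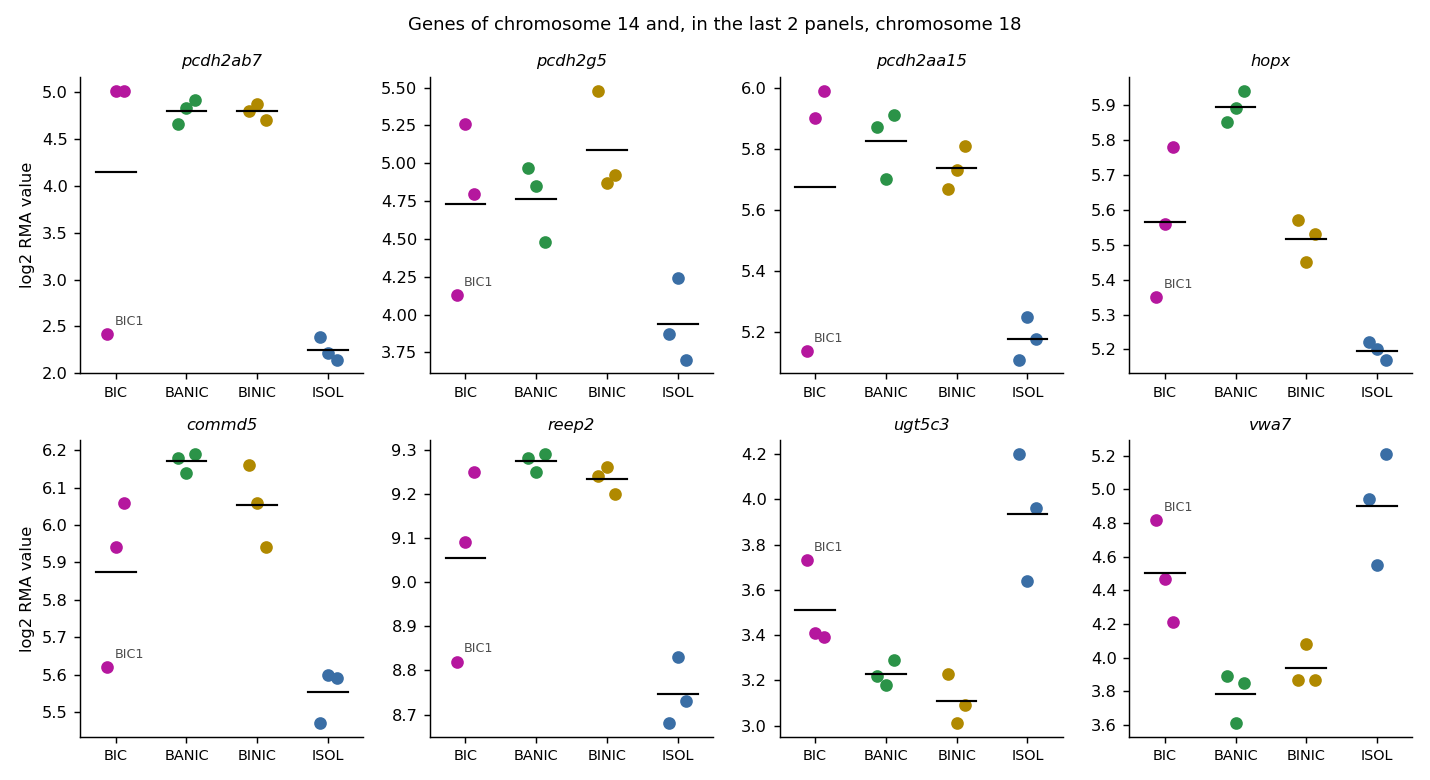
Log2 RMA values of 6 genes of chromosome 14 (pcdh2ab7, pcdh2g5, pcdh2aa15, hopx, commd5 and reep2) and 2 of chromosome 18 (ugt5c3 and vwa7) on the y axis, with a separate scale per panel; points are the 3 fish of each group, lines are group means, and the fish BIC1 is marked. BIC1 was the bystander nearest the ISOL mean in all 8 panels, which are a selection. Over the probe sets with an unadjusted P under 0.05 it was nearest in 40.6% on chromosome 14 and in 23.6% on other chromosomes.

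The remaining lists stayed near the level of all genes or followed single fish. Of 47 finTRIM genes, a fish-specific family of TRIM proteins, 0 were higher and 3 lower at an unadjusted P under 0.05 (ftr63, ftr36 and ftr50, median of the list -0.05), against 4.11% higher and 4.21% lower over all genes. ftr50 took separate levels within groups, with 5.97, 1.55 and 6.33 in BIC, 2.59, 2.60 and 1.69 in BANIC and 1.71, 6.16 and 6.38 in BINIC, against 6.0, 5.75 and 6.95 in ISOL (-2.34, adjusted p = 0.606 from limma). Of 50 phototransduction genes 0 were higher and 3 lower (opn1mw1, guca1aa and pde6a, median of the list -0.14), and the number lower was 15 without BANIC1 and 13 without ISOL1. The 13 photoreceptor and pineal markers had a mean level of 3.66 to 3.82 in BIC, 3.72 to 4.47 in BANIC and 3.70 to 4.50 in BINIC, against 3.78, 4.43 and 4.56 in ISOL. BANIC1, BINIC1, BINIC3, ISOL2 and ISOL3 lay between 4.43 and 4.56, and the other 7 fish at 3.82 or lower.

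Few markers of other cell types passed an unadjusted P under 0.05, which 4.11% of all genes did as higher and 4.21% as lower. With so few markers per list, a count of 0 does not show equal levels. The median difference was 0.19 for erythrocyte, 0.16 for ependymal and 0.14 for muscle markers. It lay between -0.04 and 0.04 for the other lists named here. At an unadjusted P under 0.05, 0 of 9 neuronal, 0 of 7 radial glial, 0 of 5 erythrocyte, 0 of 9 pituitary, 0 of 7 muscle and 0 of 4 ependymal markers were higher or lower by limma, 1 of 5 oligodendrocyte markers (sox10, -0.14) and 1 of 8 markers of meninges and fibroblasts (lum, -0.21) were lower, and none passed the FDR threshold. The erythrocyte markers spread most between fish, with mean levels of 6.69 to 7.98 in the bystanders and 6.28 to 7.81 in ISOL. Their part in the differences above was not tested.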

How the data were processed

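RNA of 12 whole brains was measured on an Affymetrix whole-transcript zebrafish array (Gene ST), 1 fish per array. The authors normalized all arrays together by RMA with oligo, per the labels, and deposited log2 values for 23467 probe sets (0.932 to 12.495, array medians 5.541 to 5.589). RMA makes the distributions of the arrays equal, so a shift of most genes would not be seen, and precision is limited by the number of arrays. The 20871 annotated probe sets were kept: 19790 name 1 gene and 1081 several, which were not named. RefSeq (GRCz12tu) held 19175 of the former and gave symbols and chromosomes. pcdhga10 carries no name in this annotation and is not reported, and 1 gene of the 15 moving alike is not reported here.

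The 4 groups were fitted with limma 3.58.1 in R 4.3.3 (lmFit, contrasts.fit, eBayes) with Benjamini-Hochberg adjustment over all 20871, without the study's filter or fits of 2 groups. The procedure was tested on simulated data. Lists used the probe set of highest mean per gene and no set test. Named genes were those called, the 25 of smallest P with 1 gene, the 15 moving alike with the smallest largest P, up to 4 per list, the 5 of smallest P among bystander groups, and genes the study names. The comparison, members and lists (11 of pathways, 11 of markers) were chosen with earlier results of these data known. Behavior was not analysed here.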

Additional observations from a re-analysis of the deposited data

Results flagged for a closer look

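4 genes differed among the 3 bystander groups, so that their differences from ISOL were not the same: npas4a, fosab, egr4 and nudc each had an adjusted p of 0.048 from the moderated F test (limma). The first 3 were high in BIC and BANIC and near ISOL in BINIC, and nudc was lowest in BINIC.

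In 13 of the 123 named probe sets a single bystander stood apart from the other 8 by Dixon's criterion, which chance alone meets in about 1 in 20 groups. BIC1 was the low fish for reep2 (8.82), commd5 (5.62), pcdh2ab7 (2.42) and pcdh2aa15 (5.14), all on chromosome 14. BANIC3 was the high fish for hspb6 (8.03) and for the muscle markers mylpfa (7.35) and tnnc2.2 (6.77). The other fish that stood apart were BINIC2 for ucn3l (7.08), BINIC1 for pmchl (5.56) and dnah9 (5.55), BIC2 for the endothelial gene cdh5 (6.13), BANIC1 for the gap junction gene gja1b (9.69) and BINIC3 for olig2 (6.75).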

How the results depend on the processing

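With 3 fish per group, several results moved with single fish. Against 2 calls at FDR under 0.05 and a log2 difference of at least 1 (4 by FDR alone), the study's filters gave 4 (8), an SD filter 4 (7), a trended robust eBayes 0 (1, with 1733 at an unadjusted P under 0.05), and array weights (1738), 2 groups of 9 and 3 (1669) and the replicate number as a block (1689) each 0 (0). By limma, the study's filters brought pcdh2ab7 (adjusted p = 0.0219), btg2 (0.0295), zgc:122979 (0.031), vwa7 (0.0364) and gpr3 (0.0464) under 0.05. The SD filter brought the same genes except gpr3 under 0.05, and si:ch73-334d15.1 lost its call under both filters. Removal of dim probe sets brought ergic1 under 0.05 (adjusted p = 0.0206 from limma). Over all probe sets, deviations from the group mean correlated from -0.136 to 0.186 between same-numbered fish (median 0.00946). Between fish of different number and group the correlations ran from -0.205 to 0.147 (median 0.00435). A pairing that acts on part of the genes may not be seen this way. Leaving out 1 fish gave 0 to 4 calls (0 to 20 by FDR alone): 0 without BIC2, BIC3, BANIC1, BINIC2, BINIC3, ISOL1 or ISOL3, 1 without BANIC3 or BINIC1, 3 without BANIC2 or ISOL2 and 4 without BIC1. By limma, npas4a, fosab and egr4 had differences of 1.41 to 1.65, 1.09 to 1.40 and 0.93 to 1.03 without 1 fish, with adjusted p-values up to 0.242, and of at least 0.49 in 2 groups. si:ch73-334d15.1 (-0.44 to -0.40) lost its call in 18 of 20 alternatives, median centring included (adjusted p = 0.0533). The 4 calls among bystander groups were 10 with the study's filters, 9 with the SD filter, 0 with the block and 0 to 6 without 1 fish (6 without BANIC3, 1 without BIC1 or BIC3, otherwise 0). The 217 probe sets moving alike were 92 with the study's filters, 104 with the SD filter, 140 without dim probe sets, 30 at P under 0.01 and 132 to 422 without 1 fish. The 273 without overlap were 141, 145 and 152 under those 3 filters and 313 to 1138 without 1 fish, since fewer fish overlap less (501 without BIC1, 825 without ISOL1, 1138 without ISOL2 and 1080 without ISOL3). Filters test fewer probe sets; other causes were not tested. Of 2490 single-gene values 16 changed sign, all of marker genes that did not pass: olig2 (0.05 with array weights, 0.01 with centring) and, over the fits without 1 fish, olig2 (-0.11 to 0.10), tnnc2.2 (-0.03 to 0.37), ccdc40 (0.00 to 0.16), her4.1 (-0.25 to 0.01), hbba2 (-0.14 to 0.89), cahz (-0.06 to 0.18), slc4a1a (-0.70 to 0.05) and col5a1 (-0.10 to 0.01). Of 396 list medians 5 moved by more than the SD between fish, without ISOL1 or ISOL3.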
